A study of Mus musculus with 12 samples.

Results

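The 36 genes described here burn fatty acids or answer to PPAR alpha, the nuclear receptor that senses fatty acids. They were chosen by name as the rows of the deposited count table, 36 of 24421 genes, that carry a listed symbol. All 36 were in the table and all 36 passed the filter on low counts. By the main place of their protein they comprised 4 regulators and secreted hormones, 15 mitochondrial genes, 9 peroxisomal genes and 8 genes of the cytosol, cell membrane or lipid droplet. RNA was sequenced from liver tissue without tumour of 12 male mice killed at 4 months of age, 3 in each of 4 groups. The groups were LiK mice on a normal diet, LiK mice on a diet with 0.06% ACR, LiKM mice on the normal diet and LiKM mice on ACR, with ACR given from 5 weeks of age. The labels give only these names. As the study is understood, LiKM mice lack Mdm2 in hepatocytes and LiK mice keep it, and ACR is an acyclic retinoid. The other alleles that both strains carry are not described here. The alleles, and the promoter or Cre behind them, are not given in the labels.

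PPAR alpha binds DNA with its partner RXR and switches on genes of fatty acid uptake and oxidation, above all in the fasting liver. Mitochondria take in long-chain fatty acids through the carnitine shuttle and shorten them by cycles of dehydrogenation, hydration, a second dehydrogenation and thiolysis. Peroxisomes run the same cycle with other enzymes on very long, branched and dicarboxylic acids. CREB3L3, a membrane-bound transcription factor of the liver, acts with PPAR alpha on the hormone FGF21.

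Libraries held 10124813 to 18647156 counts. The factors that scale the libraries to each other (TMM, which assumes that most genes do not differ) ran from 0.83 to 0.948 in LiK normal diet mice, 0.929 to 0.975 in LiK ACR mice, 1.08 to 1.24 in LiKM normal diet mice and 0.997 to 1.12 in LiKM ACR mice. The 14 hepatocyte markers tested summed to 148200 to 197600 CPM (counts scaled by depth and these factors) in LiK normal diet mice and 181500 to 190800 CPM in LiK ACR mice. The LiKM sums were 113300 to 127400 CPM with the normal diet and 155900 to 189800 CPM with ACR. Markers of bile duct and progenitor cells summed to 52.8 to 207 CPM over the 6 LiK mice, 625 to 1072 in LiKM normal diet mice and 355 to 555 in LiKM ACR mice. The part of this shift in the results that follow was not tested, and in bulk tissue fewer hepatocytes and less RNA per hepatocyte cannot be told apart. Mdm2 itself, counted over the whole gene, stood at 21.6 to 25.8 CPM in LiK and 29 to 67.2 CPM in LiKM mice. The labels do not give the deleted part, so this level checks no label.

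Most of the 36 genes were lower in LiKM than in LiK liver, 33 of 36 by the sign of the fold change on each diet. On the normal diet 25 of 36 fell and 1 rose past an adjusted p of 0.05 (edgeR's quasi-likelihood test), where 8.61% of all 13880 genes fell and 13.2% rose. On ACR 12 of 36 fell and 1 rose, where 4.24% of all genes fell and 5.55% rose. The median log2 fold change of the 36 was -0.61 on the normal diet and -0.49 on ACR, against 0.02 for all genes in both comparisons. Of the 25 that fell on the normal diet 11 also fell on ACR, which is 44% of the first list and 91.7% of the second. The comparisons share no mice but share an estimate of the spread, so they are not independent. The overlap of such lists among all genes was not computed. Slc22a5 alone was called lower on ACR and not on the normal diet. In 21 of the 36 genes every one of the 6 LiKM mice lay below every one of the 6 LiK mice, as was so for 6.18% of all genes. In Slc27a1 alone every LiKM mouse lay above every LiK mouse, as was so for 7.08% of all genes.

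**Figure D1:**
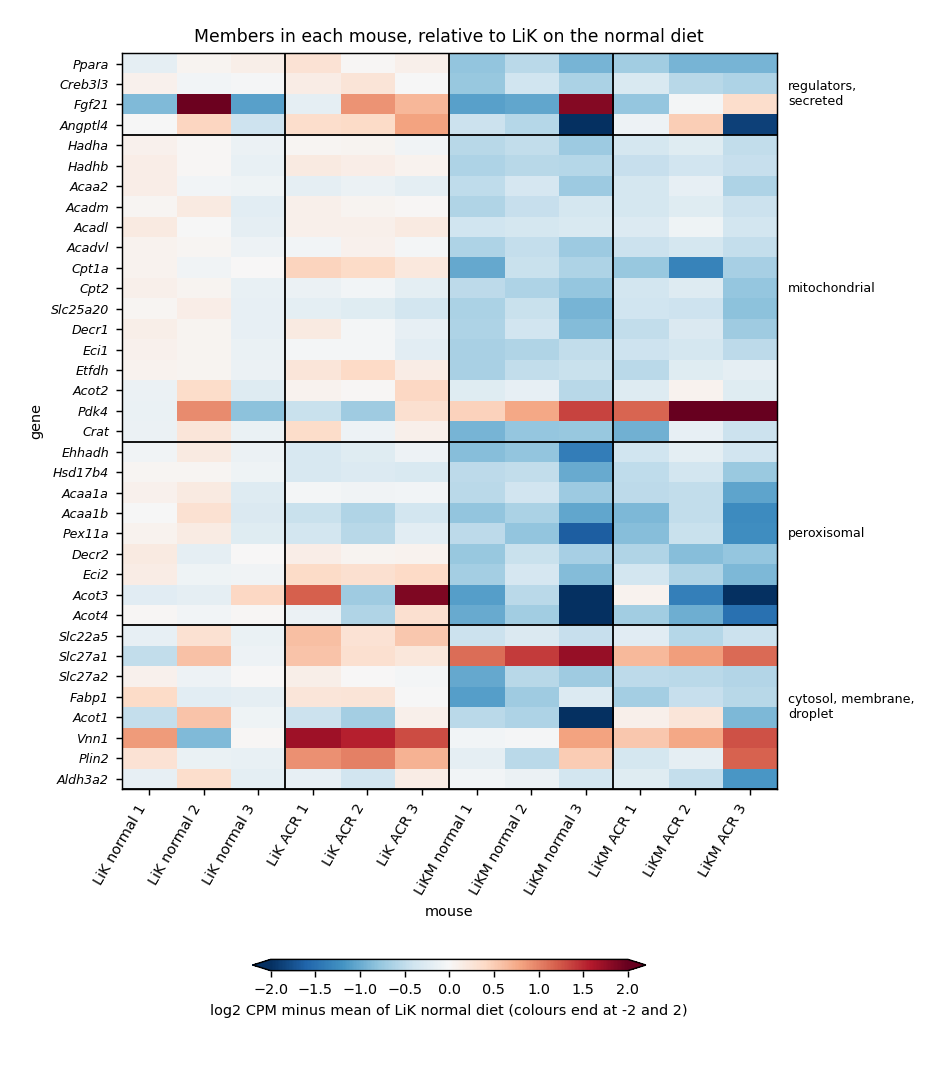
Each of the 36 genes (rows, by class) in each of the 12 mice (columns), as log2 CPM minus the mean of LiK mice on the normal diet. Colours end at -2 and 2. The 6 LiKM columns are blue in most rows, and Pdk4 and Slc27a1 stand out in red there.

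The count on the normal diet rests on the scaling of the libraries, and the count on ACR less so. Scaled by total counts alone, 2 of 36 fell on the normal diet, Ehhadh and Slc27a2, where 0.829% of all genes fell, and the median of the 36 became -0.23 while that of all genes moved to 0.41. Scaled to the hepatocyte markers, an alternative chosen after seeing the data, 1 fell (Ehhadh), where 0.432% of all genes fell, and the medians were -0.08 and 0.56. The sign of Acadl turned under both, and those of Acaa2, Acadm and Etfdh under the second. Slc27a1 rose under all 3 scalings, where 34% and 49.3% of all genes rose under these 2. On ACR the same 2 scalings left 8 and 6 of the 12, where 1.79% and 1.42% of all genes fell, with medians of -0.38 and -0.41 against 0.14 and 0.12 for all genes. The 6 called on ACR under all 3 scalings were Ppara, Creb3l3, Cpt1a, Decr2, Eci2 and Slc22a5, and Pdk4 rose under all 3, where 6.32% and 4.72% of all genes rose under the other two. Among all genes called on the normal diet the share that rose went from 60.6% to 97.6% and 99.1%, and on ACR from 56.7% to 77.9% and 76.9%. Among the members called it went from 3.85% to 33.3% and 50% on the normal diet, and from 7.69% to 11.1% and 14.3% on ACR. A scaling moves all genes of a library together. Against the median of all genes, the members' median lay at -0.62, -0.63 and -0.63 on the normal diet and at -0.52, -0.52 and -0.53 on ACR under the 3 scalings. That the 3 values are alike follows from the method and is no test of the fall.

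**Figure D2:**
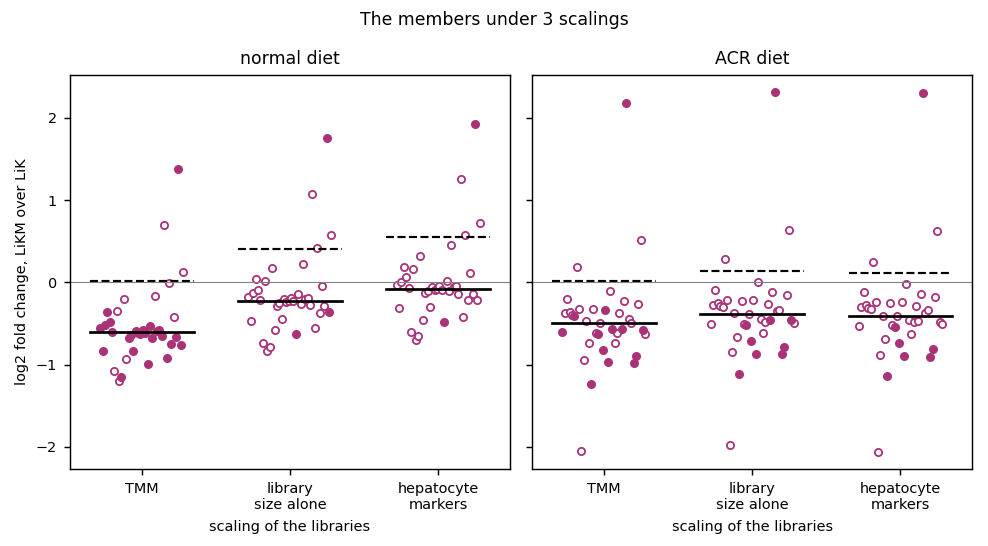
Log2 fold change of LiKM over LiK for each of the 36 genes (points, filled where the adjusted p is under 0.05) under 3 scalings, on each diet. The solid line is the members' median and the dashed line the median of all genes. On the normal diet both lines rise together from TMM to hepatocyte scaling, and few filled points remain. On ACR the 6 genes named in the text and Pdk4 stay filled.

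Single libraries moved these counts as well. Without LiK normal 1 the normal diet count of 25 became 16, where 552 of 14153 genes fell. Without LiK ACR 2 the ACR count of 12 became 6, where 167 of 14152 genes fell. With all 12 libraries 1195 and 588 of 13880 genes fell on the 2 diets. Clock genes also separated libraries. The 16 levels summed to 1002 to 1077 CPM in LiK ACR mice, 719 to 797 in LiK normal diet mice, 606 to 696 in LiKM normal diet mice and 353 to 633 in LiKM ACR mice. On ACR 3 clock genes rose and 4 fell in LiKM, where 5.55% of all genes rose and 4.24% fell. For diet in LiK 8 of the 16 had an unadjusted p under 0.05, against 14.1% of all genes, and 0 passed. There Arntl was lower on ACR (log2 difference -2.42) and Nr1d1 higher (2.81), both without overlap. The part of the clock genes in the strain and diet results was not tested. Single clock genes set 3 LiKM libraries apart, though the sum does so for ACR 3 alone. Arntl stood at 30.3 and 29.6 CPM in LiKM ACR 2 and 3 and at 0.721 to 10.4 CPM in the other libraries, and Nr1d1 at 215 CPM in LiKM normal 3 against 8.04 and 20.7 CPM in the other LiKM normal diet mice. Leaving out these 3 libraries keeps 2 LiKM normal diet mice and 1 LiKM ACR mouse, so on ACR the lone mouse is assumed to vary like the mice of the other groups. Then 25 still fell on the normal diet, where 9.86% of all genes fell, and 7 fell on ACR, where 2.13% did. Of those 7, Ppara, Cpt1a, Eci2, Etfdh and Hadhb were among the 12, and the other 7 of the 12 had adjusted p from 0.0587 (Decr2) to 0.18 (Eci1).

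Mice of the same number within LiKM deviated together, a pattern read from these same data. A fit with that block gave 24 that fell on the normal diet and 17 on ACR, where 1241 and 1054 of all 13880 genes fell. Without the block 1195 and 588 of all genes fell. Acadl left the first list (adjusted p = 0.0501). On ACR Eci1 left (adjusted p = 0.061), and Acadm, Crat, Decr1, Fabp1, Hadha and Plin2 joined (adjusted p = 0.0397, 0.0142, 0.0295, 0.0205, 0.0449 and 0.0154).

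CPM values are listed in the order of mice 1, 2 and 3, and strain differences are log2 fold changes of LiKM over LiK. Of the regulators, Ppara and Creb3l3 fell on both diets. Ppara (chr15:85734983-85802819, mm10), the receptor itself, stood at 395, 465 and 488 CPM in LiK normal diet mice and 548, 453 and 480.1 in LiK ACR mice. The LiKM values were 258, 309 and 236 CPM with the normal diet and 277, 236 and 236 with ACR. No LiKM mouse reached the lowest LiK mouse, and the diets overlapped within each strain. The strain difference was 1.68-fold on the normal diet (log2 fold change -0.75, SE 0.14, adjusted p = 0.0042) and 1.98-fold on ACR (log2 fold change -0.99, SE 0.14, adjusted p = 0.0034). On ACR the call held under all 22 alternatives tried. On the normal diet it ended under library size alone (adjusted p = 0.0525) and hepatocyte scaling (0.182).

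Creb3l3 (chr10:81084324-81098874) gave 315, 284 and 291 CPM in LiK normal diet mice, 327, 355 and 296 in LiK ACR mice, 176, 224 and 192 in LiKM normal diet mice and 239, 202 and 194 in LiKM ACR mice. Its strain groups did not overlap on either diet (normal diet -0.59, SE 0.13, adjusted p = 0.00815, ACR -0.63, SE 0.13, adjusted p = 0.0133). The ACR call ended without LiK ACR 2 (adjusted p = 0.0664), and with 1 LiKM ACR mouse left, without the 3 libraries set apart by clock genes (log2 fold change -0.46, adjusted p = 0.152). Among the secreted products, Fgf21, the fasting hormone made by hepatocytes, varied more between mice than any other member. It stood at 4.72, 34.7 and 4.10 CPM in LiK normal diet mice, 7.79, 16.5 and 14.1 in LiK ACR mice, 4.08, 4.23 and 31.7 in LiKM normal diet mice and 5.10, 8.54 and 11.3 in LiKM ACR mice. LiK normal 2 and LiKM normal 3 were high in groups whose other mice were near 4 CPM, so the groups overlapped, and no difference passed (adjusted p = 0.92 and 0.719). Angptl4, an inhibitor of lipoprotein lipase, had means of 77.9 ± 22.8, 109.7 ± 20.3, 40.97 ± 22.2 and 65.8 ± 43 CPM in the same order of groups (SD, n = 3), with 2 LiKM mice, normal 3 and ACR 3, at 15.5 and 20.7 CPM. Neither of its strain differences passed (adjusted p = 0.268 and 0.43).

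**Figure D3:**
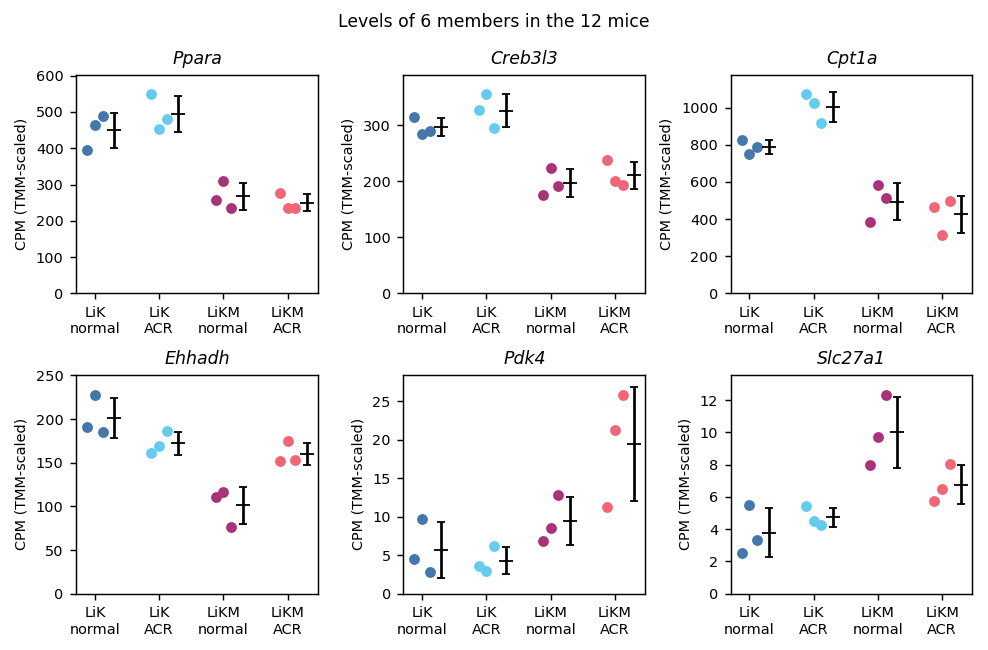
CPM of Ppara, Creb3l3, Cpt1a, Ehhadh, Pdk4 and Slc27a1 in each mouse (points), with the group mean and SD (n = 3) beside them, and axes from 0. Ppara, Creb3l3 and Cpt1a lie lower in both LiKM groups. Ehhadh is lowest in LiKM mice on the normal diet, at 76.8 to 116 CPM. Slc27a1 lies higher in all LiKM mice. Pdk4 lies higher in LiKM on ACR, while on the normal diet its strains overlap.

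Of the 15 mitochondrial genes 13 fell on the normal diet, with a class median of -0.58, and 5 fell and 1 rose on ACR, with a class median of -0.37. Cpt1a (chr19:3322334-3385733) is the outer-membrane enzyme that commits long-chain fatty acids to the mitochondrion. It stood at 827, 752 and 788 CPM in LiK normal diet mice and 1071, 1024 and 916 in LiK ACR mice. The LiKM values were 386, 581 and 516 CPM with the normal diet and 464, 313 and 498 with ACR. LiKM mice were lower on both diets without overlap, and every LiK mouse on ACR lay above every LiK mouse on the normal diet. The strain difference on the normal diet was 1.60-fold (log2 fold change -0.68, SE 0.19, adjusted p = 0.0252), and it was 2.36-fold on ACR (log2 fold change -1.24, SE 0.19, adjusted p = 0.00515). The first call ended without LiK normal 1 (adjusted p = 0.0783), LiK normal 3 (adjusted p = 0.0642) or LiKM normal 1 (adjusted p = 0.0753), and the second held under all 22 alternatives.

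The carnitine shuttle behind CPT1A was lower on the normal diet too. Slc25a20, the carnitine carrier of the inner membrane, gave 103, 110.2 and 89.3 CPM in LiK normal diet mice, 87.6, 84.9 and 77.4 in LiK ACR mice, 64.9, 74.03 and 52.3 in LiKM normal diet mice and 76.4, 75.1 and 56.9 in LiKM ACR mice. Cpt2, which restores the acyl-CoA inside, gave 127, 123 and 107 CPM in LiK normal diet mice, 109, 114 and 103 in LiK ACR mice, 82.7, 77.3 and 69.7 in LiKM normal diet mice and 91.8, 99.3 and 69.6 in LiKM ACR mice. LiKM mice were below LiK mice on each diet for both genes, and both fell on the normal diet (Slc25a20 -0.66, SE 0.15, adjusted p = 0.0101, Cpt2 -0.64, SE 0.13, adjusted p = 0.00682). On ACR their differences were -0.26 and -0.33 (adjusted p = 0.278 and 0.13). Crat, the carnitine acetyltransferase of mitochondria and peroxisomes, gave 56.4, 71.98 and 55.6 CPM in LiK normal diet mice, 78.9, 56.7 and 65.6 in LiK ACR mice, 31.8, 35.7 and 35.95 in LiKM normal diet mice and 31.2, 54.4 and 45.4 in LiKM ACR mice. It fell on the normal diet (-0.83, SE 0.19, adjusted p = 0.0109) and missed the threshold on ACR (-0.62, adjusted p = 0.0591). Its counts are uncertain, because it overlaps Dolpp1 on the opposite strand and the strand setting is not given.

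The trifunctional protein, which carries out the last 3 steps on long chains, has its alpha and beta subunits encoded head to head. Hadha (chr5:30118304-30155162, minus strand) and Hadhb (chr5:30155248-30184593, plus strand) are 85 bases apart in the annotation. That shared stretch is shown because both genes fell by nearly the same amount on the normal diet (GRCm38.p6, chr5:30155163-30155247, plus strand, RefSeq window, GC boxes GGGCGG in capitals):
Hadha-Hadhb: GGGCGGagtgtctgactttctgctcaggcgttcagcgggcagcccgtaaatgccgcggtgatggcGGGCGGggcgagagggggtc
It holds 2 GC boxes. A fall of this size was not particular to the pair. On the normal diet Acadvl (-0.60), Eci1 (-0.58) and Decr1 (-0.61), which lie on other chromosomes, differed by about as much as Hadha (-0.59) and Hadhb (-0.58). Such a box, on either strand, lies in the window from 250 bases before to 50 after the start in 21 of 30 members with a RefSeq promoter entry (70%) and in 38.2% of all 27025 genes with one.

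Hadha gave 382, 363 and 332 CPM in LiK normal diet mice, 369.9, 372 and 342 in LiK ACR mice, 244, 255 and 216 in LiKM normal diet mice and 279.8, 303 and 255 in LiKM ACR mice. Hadhb gave 244, 227 and 201 CPM in LiK normal diet mice, 254, 246 and 235 in LiK ACR mice, 146, 151 and 151 in LiKM normal diet mice and 162, 172 and 161 in LiKM ACR mice. Neither gene overlapped between strains on either diet. On the normal diet Hadha fell by 0.59 on the log2 scale (SE 0.11, adjusted p = 0.00449) and Hadhb by 0.58 (SE 0.10, adjusted p = 0.00207). On ACR Hadhb fell (-0.57, SE 0.10, adjusted p = 0.00735) and Hadha was just short of the threshold (-0.37, SE 0.11, adjusted p = 0.0558). Hadhb had the lowest mean coefficient of variation within groups of all members, 4.73%.

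The acyl-CoA dehydrogenases, which open each cycle, are graded by chain length. Acadvl, for very long chains, gave 369, 359.6 and 328 CPM in LiK normal diet mice, 339, 373 and 342 in LiK ACR mice, 229, 253 and 213 in LiKM normal diet mice and 261, 277 and 253 in LiKM ACR mice. Acadl, for long chains, gave 221, 193 and 173 CPM in LiK normal diet mice, 209.7, 209 and 219.7 in LiK ACR mice, 148, 153 and 158 in LiKM normal diet mice and 162, 183 and 151 in LiKM ACR mice. Acadm, for medium chains, gave 204, 227 and 171 CPM in LiK normal diet mice, 213, 208 and 203 in LiK ACR mice, 131, 145 and 157 in LiKM normal diet mice and 156, 168 and 148 in LiKM ACR mice. All 3 lay lower in LiKM mice without overlap on the normal diet, and fell there by 0.60, 0.36 and 0.48 on the log2 scale (adjusted p = 0.00291, 0.039 and 0.0146). On ACR Acadvl fell (-0.42, SE 0.11, adjusted p = 0.0306), Acadm was at an adjusted p of 0.05003, just outside, and Acadl at 0.058. Acadl lost its normal diet call without any of LiK normal 1, LiK normal 2, LiK ACR 1, LiK ACR 2, LiK ACR 3, LiKM normal 1, LiKM normal 2 and LiKM normal 3, with adjusted p from 0.0515 to 0.152. Acadm lost it without LiK normal 2 (adjusted p = 0.0523) or LiKM normal 1 (adjusted p = 0.0526). Acadvl lost its ACR call without any of LiK ACR 1, LiK ACR 2, LiK ACR 3, LiKM ACR 1, LiKM ACR 2 and LiKM ACR 3, with adjusted p from 0.0549 to 0.124. Acadvl overlaps Dvl2 on the opposite strand, and its counts are uncertain for that reason.

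Etfdh passes electrons from these dehydrogenases to ubiquinone, and gave 219, 215 and 190.4 CPM in LiK normal diet mice, 245, 273 and 229.8 in LiK ACR mice, 132, 147 and 153 in LiKM normal diet mice and 144, 176 and 183 in LiKM ACR mice. It fell on both diets (-0.53, SE 0.12, adjusted p = 0.0106 and -0.57, SE 0.12, adjusted p = 0.0161), the second call ending without LiK ACR 2 (adjusted p = 0.0752). Acaa2, a thiolase for the last step, gave 940.3, 821 and 806 CPM in LiK normal diet mice, 754, 783 and 748 in LiK ACR mice, 602, 674 and 516 in LiKM normal diet mice and 669, 766 and 557 in LiKM ACR mice. It fell on the normal diet (-0.52, SE 0.15, adjusted p = 0.0261), a call that ended without LiK normal 1 (adjusted p = 0.0966), LiK normal 3 (adjusted p = 0.0503), LiKM normal 1 (adjusted p = 0.0621) or LiKM normal 3 (adjusted p = 0.0697), and its groups overlapped on ACR (-0.20, adjusted p = 0.411).

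Decr1 and Eci1 prepare unsaturated chains for the cycle. Decr1 gave 207, 199.5 and 170 CPM in LiK normal diet mice, 218, 187 and 172 in LiK ACR mice, 125, 148 and 105 in LiKM normal diet mice and 136, 157 and 117 in LiKM ACR mice. Eci1 gave 80.9, 78.99 and 69.5 CPM in LiK normal diet mice, 74.2, 74.3 and 66.1 in LiK ACR mice, 48.8, 50.5 and 53.9 in LiKM normal diet mice and 57.2, 59.8 and 53.3 in LiKM ACR mice. Both fell on the normal diet (Decr1 -0.61, SE 0.16, adjusted p = 0.0168, Eci1 -0.58, SE 0.10, adjusted p = 0.00215), and Decr1 lost that call without LiK normal 1 (adjusted p = 0.0625). On ACR Eci1 fell by 0.33 on the log2 scale at an adjusted p of 0.0493. That call ended without any one library but LiKM normal 3, at adjusted p from 0.0519 to 0.163.

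Pdk4 ran the other way. It encodes the kinase that shuts off pyruvate dehydrogenase and so spares glucose when fat is burnt. It stood at 4.51, 9.73 and 2.76 CPM in LiK normal diet mice and 3.61, 3.00 and 6.24 in LiK ACR mice. The LiKM values were 6.90, 8.59 and 12.9 CPM with the normal diet and 11.3, 21.2 and 25.9 with ACR. On ACR every LiKM mouse lay above every LiK mouse, 4.54-fold on average (log2 fold change 2.18, SE 0.47, adjusted p = 0.0192), while on the normal diet the groups overlapped (0.70, adjusted p = 0.304). The ACR call ended without LiK ACR 1 (adjusted p = 0.0732) or LiK ACR 2 (adjusted p = 0.0886), with mice blocked by number within LiKM (log2 fold change 1.54, adjusted p = 0.0763) and without the 3 libraries set apart by clock genes (1.38, adjusted p = 0.21). Those 3 include LiKM ACR 2 and 3, the highest at 21.2 and 25.9 CPM, so that value compares only LiKM ACR 1, the lowest of its group at 11.3 CPM, with LiK. Acot2, a mitochondrial thioesterase, was low throughout with means of 5.31 ± 1.30, 5.93 ± 0.92, 4.18 ± 0.60 and 4.75 ± 0.65 CPM in LiK normal, LiK ACR, LiKM normal and LiKM ACR mice (SD, n = 3) and passed neither test. Pdk4 and Acot2 had counts that were not whole numbers in 8 and 9 of the 12 libraries, and are uncertain for that reason.

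Of the 9 peroxisomal genes 8 fell on the normal diet, with a class median of -0.83, and 3 fell on ACR, with a class median of -0.61. Whether the peroxisomal and mitochondrial classes differ was not tested. Ehhadh (chr16:21761287-21787807) encodes the bifunctional enzyme of the peroxisomal cycle and is a classic PPAR alpha target. It stood at 191, 228 and 185 CPM in LiK normal diet mice and 161, 169 and 187 in LiK ACR mice. The LiKM values were 111, 116 and 76.8 CPM with the normal diet and 152, 175 and 153 with ACR. The LiKM normal diet mice lay below all 9 others, and with ACR the strains overlapped. The normal diet difference was 1.99-fold (log2 fold change -0.99, SE 0.15, adjusted p = 0.00145) and held under all 22 alternatives. On ACR the difference was -0.11 (SE 0.15, adjusted p = 0.688).

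As an example of a target's upstream sequence, 120 bases upstream of Ehhadh are given, the nearest of them 158 bases from the start in the GENCODE annotation (GRCm38.p6, chr16:21787965-21788084, minus strand, RefSeq). Capitals mark the core TGACGT of the element bound by CREB-type factors:
Ehhadh: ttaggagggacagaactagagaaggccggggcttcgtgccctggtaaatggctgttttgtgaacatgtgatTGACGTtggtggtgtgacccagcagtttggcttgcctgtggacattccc
This core, on either strand, is in the window of 1 of 30 members (3.33%) and 8.37% of all genes with one. A match is a description of letters and no measure of binding.

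The other enzymes of the peroxisomal cycle were lower with Ehhadh. Hsd17b4, the second bifunctional enzyme, gave 430.4, 430.3 and 392 CPM in LiK normal diet mice, 335, 344 and 337 in LiK ACR mice, 290.3, 298 and 207 in LiKM normal diet mice and 294, 322 and 250 in LiKM ACR mice. The thiolase Acaa1b gave 690.3, 854 and 569.5 CPM in LiK normal diet mice, 509.7, 456 and 537 in LiK ACR mice, 401, 448 and 338 in LiKM normal diet mice and 375, 494 and 291 in LiKM ACR mice. Its copy Acaa1a gave 231, 245 and 181 CPM in LiK normal diet mice, 211, 206 and 208 in LiK ACR mice, 149.9, 166 and 132 in LiKM normal diet mice and 152, 154 and 104 in LiKM ACR mice. All 3 fell on the normal diet (Hsd17b4 -0.65, SE 0.15, adjusted p = 0.00949, Acaa1b -0.83, SE 0.20, adjusted p = 0.0141, Acaa1a -0.55, SE 0.16, adjusted p = 0.0301), and Acaa1a fell on ACR too (-0.61, SE 0.16, adjusted p = 0.0362). On ACR Hsd17b4 and Acaa1b differed by -0.23 and -0.37 (adjusted p = 0.332 and 0.253). Acaa1a lost its normal diet call without LiK normal 1 (adjusted p = 0.0924), LiK normal 2 (adjusted p = 0.0917), LiKM normal 1 (adjusted p = 0.0711) or LiKM normal 3 (adjusted p = 0.0798) and its ACR call without LiK ACR 1 (adjusted p = 0.0964), LiK ACR 2 (adjusted p = 0.104), LiK ACR 3 (adjusted p = 0.0835) or LiKM ACR 3 (adjusted p = 0.0785). Acaa1a and Acaa1b are near-identical copies, and how their reads were split is not known.

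Decr2 and Eci2, the peroxisomal counterparts of Decr1 and Eci1, fell on both diets. Decr2 gave 276, 215 and 247 CPM in LiK normal diet mice, 268, 254 and 256 in LiK ACR mice, 144, 179 and 155 in LiKM normal diet mice and 161, 136 and 143 in LiKM ACR mice. Eci2 gave 187, 161 and 163 CPM in LiK normal diet mice, 221, 212 and 225 in LiK ACR mice, 106, 135 and 92.5 in LiKM normal diet mice and 132, 112 and 91.5 in LiKM ACR mice. Neither overlapped between strains. The differences on the normal diet and on ACR were -0.62, SE 0.12, adjusted p = 0.00512 and -0.82, SE 0.12, adjusted p = 0.00446 for Decr2, and -0.61, SE 0.16, adjusted p = 0.0172 and -0.97, SE 0.16, adjusted p = 0.00606 for Eci2. Eci2 kept its ACR call under all 22 alternatives and Decr2 under 21, missing it without the 3 libraries set apart by clock genes, where 1 LiKM ACR mouse is left (adjusted p = 0.0587). On the normal diet Eci2 lost its call without LiK normal 1 (adjusted p = 0.0674) or LiKM normal 1 (adjusted p = 0.0527).

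Pex11a, which drives peroxisome division, gave 35.1, 37.4 and 28.2 CPM in LiK normal diet mice, 25.8, 22.8 and 28.7 in LiK ACR mice, 23.2, 19.3 and 10.6 in LiKM normal diet mice and 18.4, 24.3 and 13.97 in LiKM ACR mice. Acot4, a thioesterase for succinyl-CoA and dicarboxylic acyl-CoA, gave 34.9, 32.9 and 34.8 CPM in LiK normal diet mice, 31.5, 22.4 and 42.7 in LiK ACR mice, 16.9, 20.99 and 8.27 in LiKM normal diet mice and 21.02, 17.2 and 12.1 in LiKM ACR mice. Both fell on the normal diet (Pex11a -0.92, SE 0.26, adjusted p = 0.0283, Acot4 -1.15, SE 0.32, adjusted p = 0.0271) and LiKM normal 3 was the lowest mouse for both. Pex11a lost its call without LiK normal 1 (adjusted p = 0.08), LiK normal 2 (adjusted p = 0.0742), LiKM normal 2 (adjusted p = 0.0501) or LiKM normal 3 (adjusted p = 0.0502). Acot4 lost it without LiK normal 1 (adjusted p = 0.0714), LiK normal 2 (adjusted p = 0.0513), LiK normal 3 (adjusted p = 0.0676), LiKM normal 1 (adjusted p = 0.0587) or LiKM normal 3 (adjusted p = 0.0511). On ACR neither passed (-0.45 and -0.94, adjusted p = 0.295 and 0.0824). Acot3, a thioesterase for long chains, ranged from 1.22 CPM in LiKM ACR 3 to 29.1 CPM in LiK ACR 3. Its strain differences of -1.19 and -2.05 carried SEs of 0.75 and 0.73 and did not pass (adjusted p = 0.279 and 0.0969). Acot4 and Acot3 both overlap Gm49366 on the same strand and 4732463B04Rik on the opposite strand. Their counts were not whole in 5 and 8 libraries and are uncertain.

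**Figure D4:**
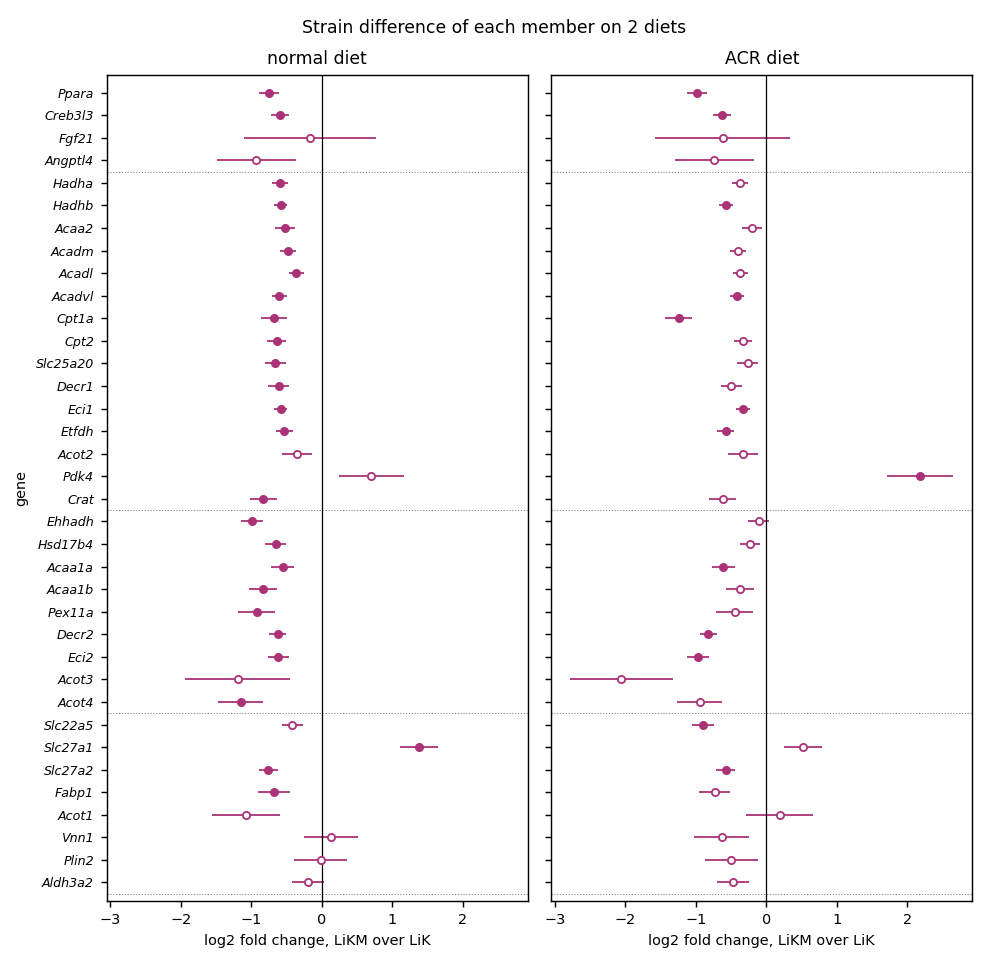
Log2 fold change of LiKM over LiK, with its SE, for each of the 36 genes on the normal diet (left) and on ACR (right). Filled points have an adjusted p under 0.05 in edgeR with TMM scaling. Most points lie left of 0 on both diets. Slc27a1 on the normal diet and Pdk4 on ACR are the filled points to the right.

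Of the 8 genes of the cytosol, membrane and droplet 2 fell and 1 rose on the normal diet, with a class median of -0.31, and 2 fell on ACR, with a class median of -0.54. The transporters diverged. Slc27a2 (chr2:126552407-126588243), the acyl-CoA synthetase FATP2 of liver, gave 1568, 1371 and 1481 CPM in LiK normal diet mice, 1591, 1482 and 1436 in LiK ACR mice, 721, 1001 and 894 in LiKM normal diet mice and 1021, 1017 and 985 in LiKM ACR mice. It fell on both diets (-0.76, SE 0.14, adjusted p = 0.00377 and -0.58, SE 0.14, adjusted p = 0.025), without overlap, and lost the ACR call without any of LiK ACR 1, LiK ACR 2, LiK ACR 3, LiKM ACR 1, LiKM ACR 2 and LiKM ACR 3, with adjusted p from 0.05002 to 0.0881. Slc27a1 (chr8:71568882-71587302), the family member FATP1 better known from muscle and fat, gave 2.54, 5.49 and 3.35 CPM in LiK normal diet mice, 5.41, 4.53 and 4.25 in LiK ACR mice, 7.98, 9.72 and 12.3 in LiKM normal diet mice and 5.72, 6.51 and 8.05 in LiKM ACR mice. It was higher in all 6 LiKM mice than in all 6 LiK mice and rose 2.6-fold on the normal diet (log2 fold change 1.38, SE 0.27, adjusted p = 0.00538), a call that held under all 22 alternatives. On ACR its difference was 0.52 (SE 0.27, adjusted p = 0.237). Its counts were not whole in any of the 12 libraries and are uncertain. Per kilobase of exon, in LiK on the normal diet, Slc27a1 was at 0.65 ± 0.26 CPM per kb and Slc27a2 at 392 ± 26.2 (SD, n = 3).

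Slc22a5, the carnitine importer of the cell membrane, gave 15.9, 22.1 and 16.3 CPM in LiK normal diet mice, 27.3, 21.97 and 26.1 in LiK ACR mice, 13.2, 14.7 and 12.9 in LiKM normal diet mice and 15.2, 11.9 and 13.3 in LiKM ACR mice. Its strain groups did not overlap on either diet. The difference passed on ACR (-0.90, SE 0.15, adjusted p = 0.00732) and just missed on the normal diet (-0.42, SE 0.15, adjusted p = 0.0692). Without the 3 libraries set apart by clock genes, with 1 LiKM ACR mouse left, the ACR value was -0.73 at an adjusted p of 0.0849. Its counts were not whole in 8 libraries.

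Fabp1 (chr6:71199827-71205023), the fatty acid carrier of hepatocyte cytosol, was the highest member per kilobase at 8769 ± 2158 CPM per kb in LiK on the normal diet (SD, n = 3). It was the only one of the 30 members with a promoter window to hold a PPAR-type repeat there, so 100 bases before its annotated start are shown (GRCm38.p6, chr6:71199727-71199826, plus strand, RefSeq). Capitals mark the repeat, which reads on the minus strand as AGGNCANAGGNCA:
Fabp1: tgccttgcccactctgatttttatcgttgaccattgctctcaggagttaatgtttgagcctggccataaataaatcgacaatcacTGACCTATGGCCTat
The motif is the half-site AGGTCA with its T left free, given 2 times with 1 base between, searched on both strands. It lies in 1 of 30 member windows (3.33%) and in 0.451% of all windows. With no base left free it lies in 0 of 30 and in 0.0481%, which says only that these letters are not in these windows. Fabp1 gave 6226, 4113 and 4209 CPM in LiK normal diet mice, 5635, 5714 and 4757 in LiK ACR mice, 2218, 2902 and 3953 in LiKM normal diet mice and 2986, 3456 and 3249 in LiKM ACR mice. LiKM mice were lower without overlap on each diet, and it fell on the normal diet by 0.68 on the log2 scale at an adjusted p of 0.0497. That call ended without any one of 10 of the 12 libraries, at adjusted p from 0.0514 to 0.198, and held without LiK normal 2 or LiKM normal 3. On ACR the difference was -0.73 (SE 0.23, adjusted p = 0.061).

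The remaining members showed no strain difference that passed on all 12 libraries without a block. Acot1, a cytosolic thioesterase, had group means of 11.8 ± 4.52, 9.17 ± 2.67, 5.56 ± 3.31 and 10.5 ± 3.94 CPM in the order LiK normal, LiK ACR, LiKM normal, LiKM ACR (SD, n = 3). Its counts were not whole in 7 of the 12 libraries and are uncertain. Vnn1, the pantetheinase and a PPAR alpha target, had means of 48.5 ± 27.7, 125 ± 16.6, 53.1 ± 19.4 and 80.4 ± 21.4 CPM. Plin2, the coat protein of lipid droplets, had means of 390.3 ± 68.9, 712 ± 75.5, 387 ± 148 and 505 ± 318 CPM. Vnn1 and Plin2 had their highest means in LiK ACR mice, and the Plin2 values spread most in LiKM ACR mice. Without LiKM ACR 3, at 872 CPM against 302 and 342 CPM in the others, Plin2 was lower in LiKM on ACR (log2 fold change -1.15, adjusted p = 0.0325, against -0.49 and 0.431 with it). With LiKM mice blocked by number it was at -0.99 (adjusted p = 0.0154). Aldh3a2, the fatty aldehyde dehydrogenase, had means of 263 ± 58.5, 239 ± 45, 229 ± 25.9 and 173 ± 52.4 CPM. Aldh3a2 ranged from 116 CPM in LiKM ACR 3 to 330 CPM in LiK normal 2.

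No member passed the test for diet in either strain with edgeR on all 12 libraries without a block. In LiK 0 of 36 passed, 5 had an unadjusted p under 0.05 (13.9%, against 14.1% of all genes), and 0.13% of all genes rose and 0.0648% fell. In LiKM 0 of 36 passed, 2 had an unadjusted p under 0.05 (5.56%, against 7.24% of all genes), and 0% of all genes rose or fell. The median log2 difference of ACR from the normal diet was 0.04 in LiK and 0.12 in LiKM. For the difference of the diet effects 0 of 36 passed and 4 had an unadjusted p under 0.05 (11.1%, against 11.5% of all genes), where 0.0072% of all genes rose and 0% fell. DESeq2 called 1 member in each of these 3 comparisons, always higher, where it called 1.65%, 0.108% and 0.353% of all genes higher. With LiKM mice blocked by number edgeR called 1 member, Ehhadh, for the difference of the diet effects (adjusted p = 0.0263), where 0.98% of all genes rose.

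In LiK mice Vnn1 had the smallest p for diet. It stood at 78.2, 23.3 and 44.1 CPM without ACR and 139.9, 127 and 107 with it, with no overlap (1.36, SE 0.39, adjusted p = 0.171). In LiKM it stood at 41.4, 42.5 and 75.5 CPM without ACR and 62.9, 73.96 and 104 with it, which overlapped. With DESeq2 the LiK difference passed (adjusted p = 0.0159), and over the alternatives the adjusted p ran from 0.0159 to 0.376. Plin2 stood at 469.9, 351 and 349.7 CPM in LiK normal diet mice and 729, 777 and 629 in LiK ACR mice, also with no overlap (0.87, adjusted p = 0.337). In LiKM it stood at 343, 267 and 552 CPM without ACR and 302, 342 and 872 with it, with mouse 3 of each diet far above the others. Fitted on the 2 LiK groups only, Plin2 passed (adjusted p = 0.0115), where 348 of 12803 genes rose. With LiKM mice blocked by number Plin2 passed as well (0.0168), where 297 of 13880 genes rose. In the main fit 18 of 13880 genes rose. The adjusted p of Plin2 ran up to 0.546 over the alternatives. Eci2, whose values are given above, was also higher in all LiK mice on ACR than on the normal diet (0.37, adjusted p = 0.322). Fitted on the 2 groups only, Eci2 had an adjusted p of 0.0383, where the same 348 of 12803 genes rose. With ACR in LiK 5 members were higher and 4 lower without overlap, and 27 overlapped. The lower ones were Acaa1b (-0.49, adjusted p = 0.305), Hsd17b4 (-0.30, adjusted p = 0.370), Slc25a20 (-0.27, adjusted p = 0.429) and Acaa2 (-0.17, adjusted p = 0.627). How many of all genes were without overlap was not computed, so no response of the members is read from these counts.

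In LiKM mice Ehhadh had the smallest p for diet. Its LiKM values on ACR, 152 to 175 CPM, did not overlap those on the normal diet, 76.8 to 116 CPM, yet the adjusted p was 0.22 (log2 difference 0.66, SE 0.15). In LiK mice it was lower on ACR in 2 of 3 mice than in any mouse on the normal diet (-0.23). The difference between these diet effects was 0.89 (SE 0.21, adjusted p = 0.184). It passed with DESeq2 (adjusted p = 0.0243) and with the block within LiKM, and ran up to 0.458 over the alternatives. For Pdk4 the difference of diet effects was 1.48 (adjusted p = 0.429).

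The wider pathway moved in part with the members. On the normal diet 8.61% of all 13880 genes fell and 13.2% rose, and on ACR 4.24% fell and 5.55% rose. Of 36 other genes listed as peroxisomal 22 fell on the normal diet and 9 on ACR, and 0 rose on either. Those of smallest p on the normal diet were Acot12 (-0.83, adjusted p = 0.00424), the peroxisomal acyl-CoA transporter Abcd3 (2.004-fold lower, adjusted p = 0.00426) and the epoxide hydrolase Ephx2 (-0.96, adjusted p = 0.00656). On ACR they were the import factor Pex19 (-0.62, adjusted p = 0.0105), Acot12 (-0.80, adjusted p = 0.011) and the racemase Amacr (-0.63, adjusted p = 0.0133). The list was drawn up by name, and whether the Acot12 protein lies in the peroxisome was not checked. Of 22 other mitochondrial oxidation genes 11 fell and 2 rose on the normal diet, and 4 fell and 0 rose on ACR. Acot9, a mitochondrial thioesterase, was the one of smallest p on the normal diet and rose (1.49, adjusted p = 0.00191). Acadsb (-0.77, adjusted p = 0.00426) and Acsf2 (-0.62, adjusted p = 0.00487) fell there, and Echs1, Acsf2 and Mlycd fell on ACR by 0.42, 0.47 and 0.55 on the log2 scale (adjusted p = 0.0277, 0.0321 and 0.0444). These counts use TMM scaling, and their values under other scalings were not computed.

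On ACR the monocarboxylate transporters Slc16a1 (0.75, adjusted p = 0.0164) and Slc16a6 (1.25, adjusted p = 0.0172), which can carry ketone bodies, rose. 

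Among 27 partners and coregulators of PPAR alpha 7 fell and 1 rose on the normal diet, and 6 fell and 1 rose on ACR. Sirt3, the mitochondrial deacetylase, fell on the normal diet (-0.64, adjusted p = 0.0042), as did Klb, the coreceptor for FGF21 (-0.56, adjusted p = 0.0111), while Fgfr1, an FGF receptor, rose (1.48, adjusted p = 0.00523). On ACR Klb (-1.05, adjusted p = 0.00253), the coactivator Ppargc1b (-1.26, adjusted p = 0.00606) and the DNA-binding partner Rxra (-0.70, adjusted p = 0.00744) fell. Rxra fell on the normal diet too (-0.47, adjusted p = 0.0169) and is named beyond the 3 of smallest p because it is the partner of PPAR alpha.

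Among 38 other PPAR alpha targets 8 fell and 3 rose on the normal diet, and 4 fell and 2 rose on ACR. Ucp2 (0.97, adjusted p = 0.0022) and Fabp4 (1.06, adjusted p = 0.00246) rose on the normal diet, and Retsat fell (-1.11, adjusted p = 0.00681). On ACR Pnpla2, the adipose triglyceride lipase, fell (-1.04, adjusted p = 0.00315), as did Gyk (-0.73, adjusted p = 0.0104), and Ucp2 rose (0.98, adjusted p = 0.00683). This list held the pathway's only calls for diet. In LiK mice the omega-hydroxylases Cyp4a31 (2.22, 4.67-fold, adjusted p = 0.017) and Cyp4a32 (1.41, 2.65-fold, adjusted p = 0.02) rose with ACR. In LiKM mice they were at 1.27 and 1.29 (adjusted p = 0.187 and 0.0865), and these 2 genes are close copies whose reads may be shared.

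Of 14 genes that respond to fasting or insulin, of which Cpt1a is also a member, 3 fell and 1 rose on the normal diet, and 1 fell and 1 rose on ACR. Igfbp1, a fasting and stress protein of hepatocytes, rose on both (1.76, adjusted p = 0.0239, and 2.04, adjusted p = 0.0253). The labels do not give feeding state or time of day at killing. Beside these counts and the marker counts below stand the shares of all genes. On the normal diet 8.61% fell and 13.2% rose, and on ACR 4.24% fell and 5.55% rose. Of the 14 hepatocyte markers 3 fell on the normal diet and 0 on ACR, with medians of -0.61 and -0.13. The median of the 36 members on the normal diet, -0.61, was thus equal to that of the hepatocyte markers, whereas on ACR the members' median was -0.49. All 11 bile duct and progenitor markers rose on the normal diet and 10 of 11 on ACR. Of the T, NK and B cell markers 5 of 9 rose and 1 fell on the normal diet and 2 rose on ACR. Of the stellate markers 3 of 10 rose on the normal diet, of the endothelial markers 2 of 8, and of the macrophage markers 1 of 9, with 0, 0 and 1 on ACR. Of the adipocyte markers 1 was tested and did not pass, and of the muscle markers 0 were tested.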

How the data were processed

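The authors deposited 1 table of expected counts, 1 value per gene and library. Fractions occur among them, since 18.9% of those above 0 are not whole (tolerance 1e-09). Libraries came from a stranded mRNA kit, per the labels' protocols, and were counted with featureCounts 2.0.0 on mm10, the tool and build in the submitters' processing notes. Aligner, annotation, strand setting and the handling of shared reads: not given in the sources used here. All 12 value columns matched a sample. Replicates are separate mice by their titles. No 2 libraries of the same group agreed within sampling noise, and libraries of different groups were not compared in this way.

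Values were rounded to whole numbers. filterByExpr kept 13880 genes, and TMM factors scaled the libraries. The test was edgeR 4.0.16's quasi-likelihood test (glmQLFit robust, R 4.3.3) on all 12 libraries with 1 coefficient per group and 5 comparisons, adjusted by Benjamini-Hochberg over all 13880 genes with a threshold of 0.05. "Fell" and "rose" refer to that threshold. SEs were taken from the F statistic, and log2 CPM used a prior count of 2. The script was tested on simulated data. Alternatives used DESeq2 1.42.0, limma 3.58.1 (voom), other scalings, filters, covariates and samples. Gene positions come from the GENCODE annotation of mm10 and promoter windows from RefSeq, which held 30 of the 36 members.

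Members, classes and gene lists were chosen with earlier results of these data known. Values per mouse are given for members past the threshold in any comparison and for Ppara, Creb3l3, Fgf21, Pdk4, Cpt1a, Hadha and Ehhadh. Other members are given by mean and range, and further lists by counts and up to 3 genes of smallest p.

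Same-numbered LiKM mice deviated together across diets (correlation of deviations from group means 0.37, 0.22 and 0.48 for mice 1, 2 and 3), while in the other pairs of groups the same numbers gave -0.10 to 0.08. The block within LiKM was thus taken from these data and not from a label, and a fit with it was an alternative. What the numbers share is not known. Between LiKM mice of different numbers on the 2 diets the correlations ran from -0.38 to 0.07. Deviations of 3 mice from their mean are not independent, so these values cannot settle a pairing. The results of some genes of the ketone body list are not reported here.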

Additional observations from a re-analysis of the deposited data

How the results depend on the processing

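On the normal diet the 25 members that fell became 2 with library size alone and 1 with hepatocyte scaling, an alternative chosen after seeing the data, and 16 to 24 without single libraries. Under hepatocyte scaling the sign turned for Acaa2 (0.007), Acadm (0.065), Acadl (0.184) and Etfdh (0.014), and under library size alone for Acadl (0.036). On ACR the 12 that fell became 6 with hepatocyte scaling, 19 with DESeq2, 7 without the 3 LiKM libraries set apart by clock genes, which leaves 1 LiKM ACR mouse assumed to vary like the other groups, and 6 to 18 without single libraries. The 1 that rose on ACR became 0 with the replicate block within LiKM and 0 without those 3 libraries, and 0 to 1 without single libraries. For diet in LiK the count that rose went from 0 to 1 with DESeq2, 1 with the replicate block within LiKM and 2 with only the groups compared. Over all 13880 genes 18 rose there in the main fit, 229 with DESeq2 and 297 with that block. With only the groups compared 348 of 12803 genes rose. For diet in LiKM the count of members that rose went from 0 to 1 with DESeq2. For the difference of the diet effects it went from 0 to 1 with DESeq2 and 1 with the replicate block within LiKM. The cause of these moves was not tested. Over all 13880 genes 962 fell on ACR with DESeq2, against 588 in the main fit. The replicate block over all groups gave 23 and 13 that fell on the 2 diets and the block within LiKM 24 and 17. Over all 13880 genes 1201 and 583 fell with the first block, and 1241 and 1054 with the second. With the letters that open the sample identifier as covariate (LiK normal 2 and 3 and LiKM ACR 3 differ from the rest) the counts were 24 and 9. Of all genes 1207 and 503 fell with that covariate. Of 39 calls of a member in a comparison, 39 kept their side of the threshold and their sign with DESeq2 and 39 with limma-voom. With no filter on low counts 38 did, and 35 with the identifier prefix as covariate. Library size alone kept 12 and reversed the sign of 1, and hepatocyte scaling kept 9 and reversed 4. Without single libraries 29 to 35 were kept. The 36 members' lowest median count over libraries was 72.25, and 3 mice a group limit the precision of every comparison.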

Other observations

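The members differed among themselves in how evenly the mice of a group carried them. The mean coefficient of variation within groups ran from 4.73% for Hadhb to 78.2% for Fgf21. Acot3 (60.6%), Pdk4 (43.8%), Angptl4 (41.8%) and Acot1 (41.1%) followed Fgf21. The single mouse that was lowest in its group was the same for many members. LiK normal 3 was lowest in 23 of 36, LiKM normal 3 in 20 of 36 and LiKM ACR 3 in 22 of 36. LiKM normal 3 was also the highest of its group in 11 members, among them Fgf21, Pdk4, Plin2 and Vnn1, and LiKM normal 2 was the highest in 20.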
